A study of Mus musculus with 3 samples.

Results

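Kupffer cells are the resident macrophages of the liver sinusoids, and 10 genes that mark them or carry out their scavenging were followed across control liver, diet-fed liver with nonalcoholic steatohepatitis (NASH) and thyroid hormone (TH)-treated NASH liver. The genes were chosen by symbol from a table of 35275 genes: Clec4f, Timd4, Marco, Cd163, Vsig4, Cd5l, Folr2, Mrc1, Cd68 and Csf1r. All 10 were found, and all 10 reached 1 FPKM (a read density: fragments per length of gene and per size of library) in at least 1 library. Liver polyA RNA of male C57BL/6J mice, 10 weeks old when the diets began, was sequenced as 1 library per group. The control library came from untreated mice on normal chow, whose weeks on diet and age at collection the labels do not state. The NASH library came from mice given western diet and liquid fructose and no hormone, labelled 24 weeks. The TH-treated NASH library was from mice that had that diet for 16 weeks and then took T3 (35 ng/g) and T4 (7 ng/g) in drinking water with 15% fructose for 8 more weeks. No gene was altered in any group, and whether RNA of several animals was combined in a library is not stated. Since each group has 1 library, differences have no replicate check, no test between groups was possible and no p-value is given. Ranges in brackets are exact 95% counting intervals, which cover counting error only.

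Kupffer cells settle the liver before birth and renew themselves there, and they clear bacteria, dying cells, complement-coated particles and haemoglobin from portal blood. In steatohepatitis, macrophages derived from blood monocytes can join or replace them, and these share general macrophage genes such as Csf1r and Cd68 but carry less Clec4f and Timd4 at first. The RNA was from whole liver, so fewer cells of a type and less RNA per cell cannot be told apart, and the cell that made each transcript was not observed. Mrc1 is also made by sinusoidal endothelium.

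As the deposited table gives them, Clec4f (ENSMUSG00000014542) lies on chromosome 6 from 83644542 to 83656187, Cd163 (ENSMUSG00000008845) on chromosome 6 from 124304651 to 124330527 and Timd4 (ENSMUSG00000055546) on chromosome 11 from 46810800 to 46844332. Marco (ENSMUSG00000026390) lies on chromosome 1 from 120474538 to 120505024, Vsig4 (ENSMUSG00000044206) on chromosome X from 96247203 to 96293438 and Cd5l (ENSMUSG00000015854) on chromosome 3 from 87357881 to 87371074. Folr2 (ENSMUSG00000032725) lies on chromosome 7 from 101839990 to 101845331, Mrc1 (ENSMUSG00000026712) on chromosome 2 from 14229414 to 14332057, Cd68 (ENSMUSG00000018774) on chromosome 11 from 69664213 to 69666153 and Csf1r (ENSMUSG00000024621) on chromosome 18 from 61105572 to 61132149. All 10 are protein-coding genes spread over 8 chromosomes, with a build not given in the sources used here. Csf1r is the member whose span overlaps another listed gene, Hmgxb3, by 871 bases on the opposite strand. Whether counting used strand is not given, so reads there cannot be told apart. Hmgxb3 stood at 2.83, 2.84 and 2.87 FPKM in the 3 libraries, and the part of the overlap in the Csf1r values was not tested.

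The libraries held 38303410 to 54576236 fragments on genes, the TH-treated NASH library having the fewest. Albumin, the defining hepatocyte transcript, stood at 32685, 20265 and 14907 FPKM in control, NASH and TH-treated NASH. Over the 11835 genes at 1 FPKM or more in any library, the median log2 ratio of FPKM + 1 was 0.12 for NASH minus control and −0.04 for TH-treated NASH minus NASH. Median-of-ratios and TMM (trimmed mean) scaling turned the first median to −0.06, and scaling to equal sums of FPKM took the second to −0.13. Of the genes past 1.5-fold in NASH against control (1222 up, 299 down), 80.3% were higher as deposited and 59.97% after median-of-ratios scaling. For TH-treated NASH against NASH (996 up, 1068 down) the share was 48.3% as deposited and 34.8% after scaling to equal sums. For TH-treated NASH against control (1830 up, 812 down) it was 69.3% as deposited and 48.8% after TMM scaling. None of the 10 genes changed the sign of its ratio in any of the 3 comparisons under the scalings that were tried. The rest of the 8 settings, of pseudocount and filter, cannot change a sign and so did not test it.

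The sequences before the starts of 6 members are shown because these genes set the pattern described below: Clec4f, Timd4, Marco and Cd163 stood furthest above NASH in the TH-treated library, Cd5l was the most abundant member there, and Cd68 was the member that stood below NASH. Each is the 250 bases before the start in the RefSeq table (GRCm38.p6), 5′ to 3′ on the gene's strand. Capitals mark GAGGAA, letters of the core bound by the macrophage factor PU.1, and AGGTCA, the half-site read by many nuclear receptors including those for thyroid hormone and oxysterols, on either strand. The windows are chr6:83656117-83656366 for Clec4f, chr11:46810549-46810798 for Timd4, chr1:120505025-120505274 for Marco, chr6:124304401-124304650 for Cd163, chr3:87357631-87357880 for Cd5l and chr11:69666171-69666420 for Cd68. Clec4f, Marco and Cd68 are on the minus strand and the others on the plus strand.
Clec4f: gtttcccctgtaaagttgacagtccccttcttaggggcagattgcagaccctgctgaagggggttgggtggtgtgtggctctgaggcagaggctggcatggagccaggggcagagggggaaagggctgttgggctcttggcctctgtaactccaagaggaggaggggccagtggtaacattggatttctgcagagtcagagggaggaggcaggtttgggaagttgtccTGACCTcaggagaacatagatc
Timd4: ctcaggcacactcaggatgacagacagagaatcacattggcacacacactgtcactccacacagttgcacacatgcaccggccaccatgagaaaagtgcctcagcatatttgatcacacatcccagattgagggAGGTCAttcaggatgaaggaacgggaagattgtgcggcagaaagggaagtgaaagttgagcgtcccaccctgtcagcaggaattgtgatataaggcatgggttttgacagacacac
Marco: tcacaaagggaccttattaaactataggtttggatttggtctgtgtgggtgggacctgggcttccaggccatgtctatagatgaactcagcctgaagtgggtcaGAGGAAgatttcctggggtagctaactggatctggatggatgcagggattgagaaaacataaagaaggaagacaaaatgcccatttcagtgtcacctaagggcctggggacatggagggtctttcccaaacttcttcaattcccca
Cd163: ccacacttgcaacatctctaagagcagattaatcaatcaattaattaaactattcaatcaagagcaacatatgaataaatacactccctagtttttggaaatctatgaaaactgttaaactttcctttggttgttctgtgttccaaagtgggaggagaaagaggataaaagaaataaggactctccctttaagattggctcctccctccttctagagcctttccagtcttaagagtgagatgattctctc
Cd5l: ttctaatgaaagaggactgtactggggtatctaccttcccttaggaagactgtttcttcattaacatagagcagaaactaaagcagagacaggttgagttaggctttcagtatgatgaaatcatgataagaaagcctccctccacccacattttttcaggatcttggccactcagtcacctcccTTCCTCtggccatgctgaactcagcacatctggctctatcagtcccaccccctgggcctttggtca
Cd68: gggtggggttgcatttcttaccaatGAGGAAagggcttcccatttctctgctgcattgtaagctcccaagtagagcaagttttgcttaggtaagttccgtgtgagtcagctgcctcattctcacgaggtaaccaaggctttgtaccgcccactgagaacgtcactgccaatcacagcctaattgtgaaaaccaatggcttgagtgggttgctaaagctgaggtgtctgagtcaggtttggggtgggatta

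Windows were searched for 9 members, 10 windows in all because Folr2 has 2 starts. Csf1r was left out of this search. AGGTCA was found in the windows of Clec4f, where the match begins 22 bases before the start, and Timd4, where it begins 116 bases before it. That is 2 of 9 members, beside 14.02% of all 32851 windows. GAGGAA was found in 5 members (Marco, Mrc1, Cd5l, Cd68 and Vsig4), beside 23.3% of windows, and Mrc1 held it 3 times. TGACTCA, the AP-1 site, was found in Cd68 and Folr2, beside 4.46%. CACGTG, the E-box read by Mitf and Tfe factors, was found in 0 members, beside 6.02%. Both strands were searched, no match of 1 motif overlapped a match of another in these windows, and a match is a run of letters and not evidence of binding.

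Clec4f and Timd4 are the members most closely tied to resident Kupffer cells. Clec4f, a galactose-binding C-type lectin that in mouse is made by Kupffer cells, stood at 33.8 FPKM in control, 59.9 in NASH and 129.9 with TH. NASH was thus 1.77-fold above control (1.71 to 1.84), and TH-treated NASH was 2.17-fold above NASH (2.10 to 2.23). Timd4, a receptor for phosphatidylserine on dying cells that marks long-resident Kupffer cells, stood at 1.91, 3.49 and 8.94 FPKM on 227, 356 and 744 fragments. Its NASH value was 1.82-fold the control value (1.54 to 2.16), and its TH-treated value 2.56-fold the NASH value (2.26 to 2.92). Both genes were lowest in control and highest in TH-treated NASH, and for both the step from NASH to TH-treated NASH was the larger of the pair. In TH-treated NASH against control, Clec4f was 3.84-fold higher (3.71 to 3.98) and Timd4 4.67-fold higher (4.02 to 5.44).

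Marco, a class A scavenger receptor that binds bacteria and modified lipoproteins, stood at 3.30 FPKM in control, 22.3 in NASH and 79.2 with TH. It was 3.55-fold higher in TH-treated NASH than in NASH (3.37 to 3.73) and 23.99-fold higher than in control (21.5 to 26.8). Its log2 ratio lay above that of 99.9% of genes tested in both NASH against control and TH-treated NASH against control. Cd163, the receptor that takes up haemoglobin bound to haptoglobin, followed another course, at 3.40 FPKM in control, 1.80 in NASH and 9.62 with TH, on 833, 380 and 1656 fragments. NASH held the lowest value, 1.89-fold below control (1.67 to 2.14), and TH-treated NASH was 5.35-fold above NASH (4.78 to 5.99) and 2.83-fold above control (2.60 to 3.08). Cd163 was the 1 member lower in NASH than in control. Cd5l, a secreted scavenger protein also named AIM, stood at 33.7, 115 and 200.2 FPKM. It was 3.42-fold higher in NASH than in control (3.30 to 3.55) and 1.74-fold higher in TH-treated NASH than in NASH (1.70 to 1.78).

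**Figure D1:**
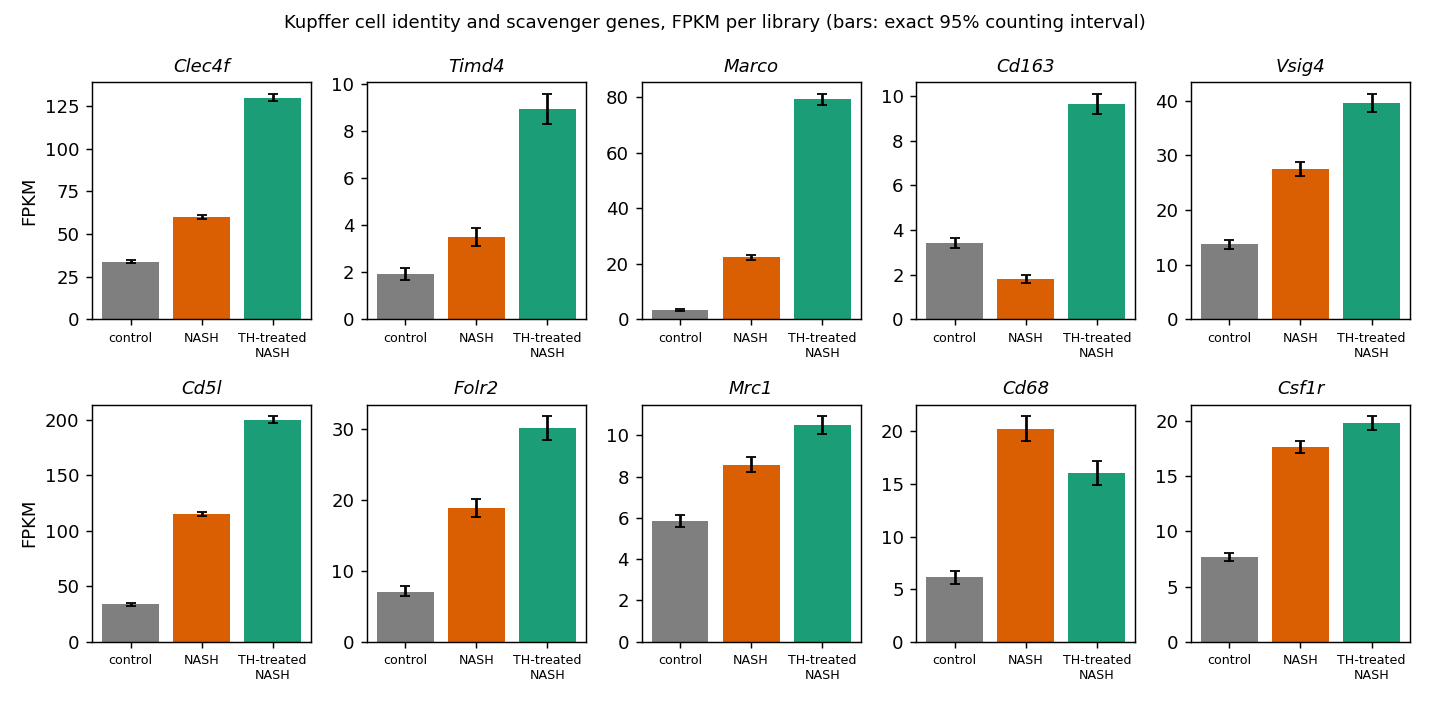
FPKM of each of the 10 genes in the control, NASH and TH-treated NASH libraries, 1 bar per library, with exact 95% counting intervals as error bars and each vertical axis starting at 0. Of the 10 genes, 8 stand in the order control, NASH, TH-treated NASH from low to high, while Cd163 is lowest in NASH (1.80 FPKM) and Cd68 is highest there (20.3 FPKM).

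Vsig4, the complement receptor that captures C3b-coated particles from blood, stood at 13.7, 27.6 and 39.6 FPKM in control, NASH and TH-treated NASH. It was 2.01-fold higher in NASH than in control (1.86 to 2.17) and 1.44-fold higher in TH-treated NASH than in NASH (1.35 to 1.53), the latter short of 1.5-fold. Folr2, the beta folate receptor of tissue macrophages, stood at 7.08, 18.8 and 30.1 FPKM, with folds of 2.66 (2.36 to 2.99) and 1.60 (1.47 to 1.74) for the same pairs. Mrc1, the mannose receptor that clears glycoproteins, stood at 5.84, 8.56 and 10.48 FPKM and was the flattest member. Its folds were 1.47 (1.37 to 1.56) and 1.22 (1.15 to 1.30), so that neither pair reached 1.5-fold.

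Cd68, a lysosomal membrane glycoprotein of phagocytes, stood at 6.11 FPKM in control, 20.3 in NASH and 16.0 with TH. It was 3.32-fold higher in NASH than in control (2.96 to 3.72), and its TH-treated value was 1.26-fold below its NASH value (1.15 to 1.39). Csf1r, the receptor for the macrophage growth factors Csf1 and Il34, stood at 7.69, 17.6 and 19.8 FPKM. NASH was 2.29-fold above control (2.17 to 2.42), and TH-treated NASH was 1.12-fold the NASH value (1.07 to 1.18). Both genes were thus well above control in each diet library and close together between the diet libraries.

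Counted as a group, members were called from 1.5-fold on the log2(FPKM + 1) scale, which understates the fold of low genes. In NASH against control 8 of 10 were higher and 1, Cd163, was lower, beside 10.3% of all genes higher and 2.53% lower. The member median was 1.03 beside 0.12 for all genes. In TH-treated NASH against NASH 6 of 10 were higher (Cd163, Marco, Timd4, Clec4f, Cd5l and Folr2) and none lower, beside 8.42% and 9.02% of all genes. The member median was 0.72 beside −0.04 for all genes. In TH-treated NASH against control all 10 were higher, beside 15.5% of genes higher and 6.86% lower, with a member median of 1.62 beside 0.11. The 3 comparisons share libraries, so their counts are not independent of each other. Timd4 and Cd163 in NASH against control (log2 ratios 0.62 and −0.65) and Folr2 in TH-treated NASH against NASH (0.65) lay just past the threshold. Timd4 was short of it after median-of-ratios scaling (0.47) and Folr2 after scaling to equal sums (0.54). With a pseudocount of 5 FPKM, Timd4 (0.295), Cd163 (−0.305) and Folr2 (0.559) were all short of it. Mrc1 in TH-treated NASH against control (0.75) was short of it after TMM scaling (0.58) and with a pseudocount of 5 FPKM (0.51).

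**Figure D2:**
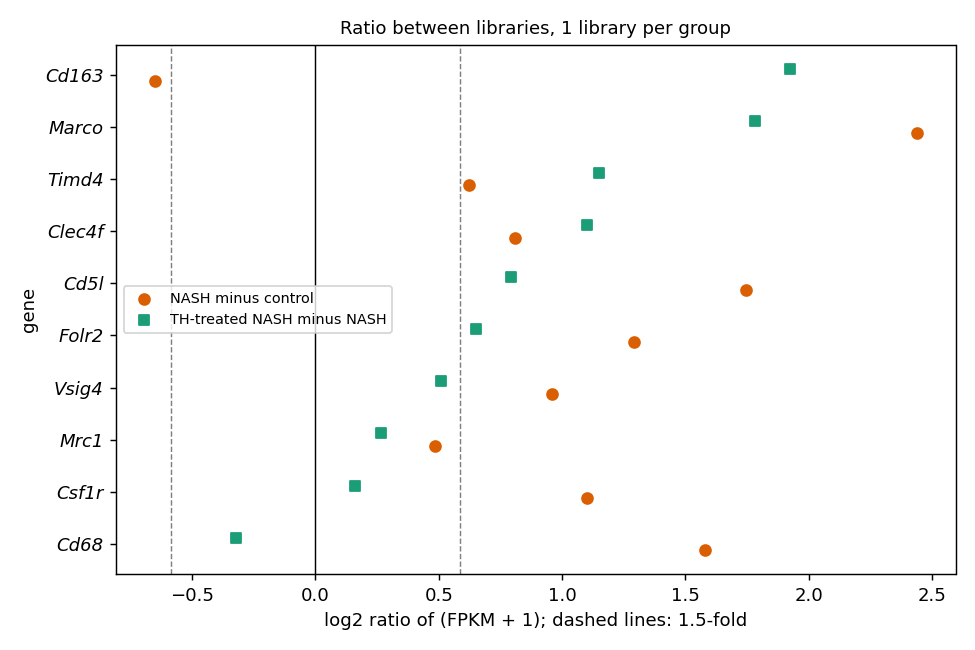
Log2 ratio of FPKM + 1 for NASH minus control (circles) and TH-treated NASH minus NASH (squares), 1 row per gene, ordered by the second ratio, with dashed lines at 1.5-fold. Cd163 lies at −0.65 in the first pair and 1.92 in the second, and Cd68 at 1.58 and −0.32, while Marco lies far to the right in both.

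By level, the order of the members also differed between libraries. In control, Clec4f and Cd5l led at overlapping intervals (32.8 to 34.8 and 32.6 to 34.7 FPKM) and Timd4 was last. The neighbours Csf1r, Folr2, Cd68 and Mrc1 overlapped each with the next, as did Cd163 with Marco. In NASH, Cd5l stood alone at the top and Clec4f second, Marco, Cd68, Folr2 and Csf1r overlapped each with the next, and Cd163 was last. In TH-treated NASH, Cd5l, Clec4f, Marco, Vsig4, Folr2, Csf1r, Cd68 and Mrc1 followed in that order with none overlapping the next up to Mrc1, and Mrc1, Cd163 and Timd4 overlapped each with the next. Marco differed most in its place, which was the ninth in control, the fourth in NASH and the third in TH-treated NASH. Summed over the 10 members, the libraries held 116, 296 and 544 FPKM, of which Marco made up 2.84%, 7.56% and 14.6%. Clec4f made up 29.0%, 20.3% and 23.9% of the sum, and Cd163 2.92%, 0.609% and 1.77%.

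A ratio of genes within a library does not depend on scaling between libraries, and it sets the Kupffer-restricted genes against genes of all macrophages. Clec4f stood at 4.40 times the level of Csf1r in control (4.17 to 4.64), 3.40 times in NASH (3.27 to 3.54) and 6.56 times with TH (6.32 to 6.81). Timd4 stood at 0.249 times Csf1r (0.216 to 0.286), 0.198 times (0.177 to 0.220) and 0.451 times (0.417 to 0.489). Both were thus highest relative to Csf1r in TH-treated NASH, and Clec4f was lowest in NASH, while for Timd4 the intervals of control and NASH overlapped. Cd163 stood at 0.442, 0.102 and 0.486 times Csf1r, so that its NASH value was 4.33-fold below control and its TH-treated value overlapped the control interval. Marco stood at 0.429, 1.27 and 4.0 times Csf1r and Cd5l at 4.38, 6.53 and 10.1 times, both higher in NASH than in control and higher again with TH. Cd68 stood at 0.794, 1.15 and 0.809 times Csf1r, its NASH value being the highest and the other intervals overlapping. Mrc1 stood at 0.759, 0.486 and 0.529 times, its control value being the highest and the diet libraries overlapping.

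Of the 9 members other than Csf1r, 5 stood at least 1.5-fold higher relative to Csf1r in TH-treated NASH than in NASH (Cd163, Marco, Timd4, Clec4f and Cd5l), beside 7.79% of all genes set against Csf1r in the same way, and none as far lower, beside 21.7%. Among all 10 relative to Adgre1, the gene of the pan-macrophage surface protein F4/80, the same 5 passed, beside 8.38% of all genes. Relative to Ptprc, the pan-leukocyte phosphatase CD45, 7 passed, Vsig4 and Folr2 being added, beside 13.8%. None was as far lower relative to either, beside 20.1% and 12.1%. In NASH against control most genes of the liver were lower relative to these references, which all stood higher in NASH: 83.7% of all genes relative to Csf1r, 93.3% relative to Adgre1 and 90.3% relative to Ptprc. Marco was the 1 member at least 1.5-fold higher relative to each of the references, beside 2.88%, 1.15% and 1.61% of all genes. Cd163 and Mrc1 were at least 1.5-fold lower relative to Csf1r, and Clec4f, Timd4 and Vsig4 joined them relative to Adgre1. Clec4f then stood at 12.8, 6.64 and 13.1 times Adgre1 in control, NASH and TH-treated NASH, and Timd4 at 0.727, 0.386 and 0.898 times. Their NASH values relative to Adgre1 were 1.93-fold and 1.88-fold below control, although both genes were higher in NASH in FPKM. In TH-treated NASH against control, 4 members (Marco, Cd5l, Timd4 and Folr2) were at least 1.5-fold higher relative to Csf1r, beside 3.42% of all genes, and none as far lower, beside 84.9%. The same 4 were as far higher relative to Ptprc, beside 3.12%, and Marco and Cd5l relative to Adgre1, beside 1.78%. Mrc1 was the 1 member at least 1.5-fold lower relative to Adgre1, beside 93% of all genes, and to Ptprc, beside 86.9%.

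**Figure D3:**
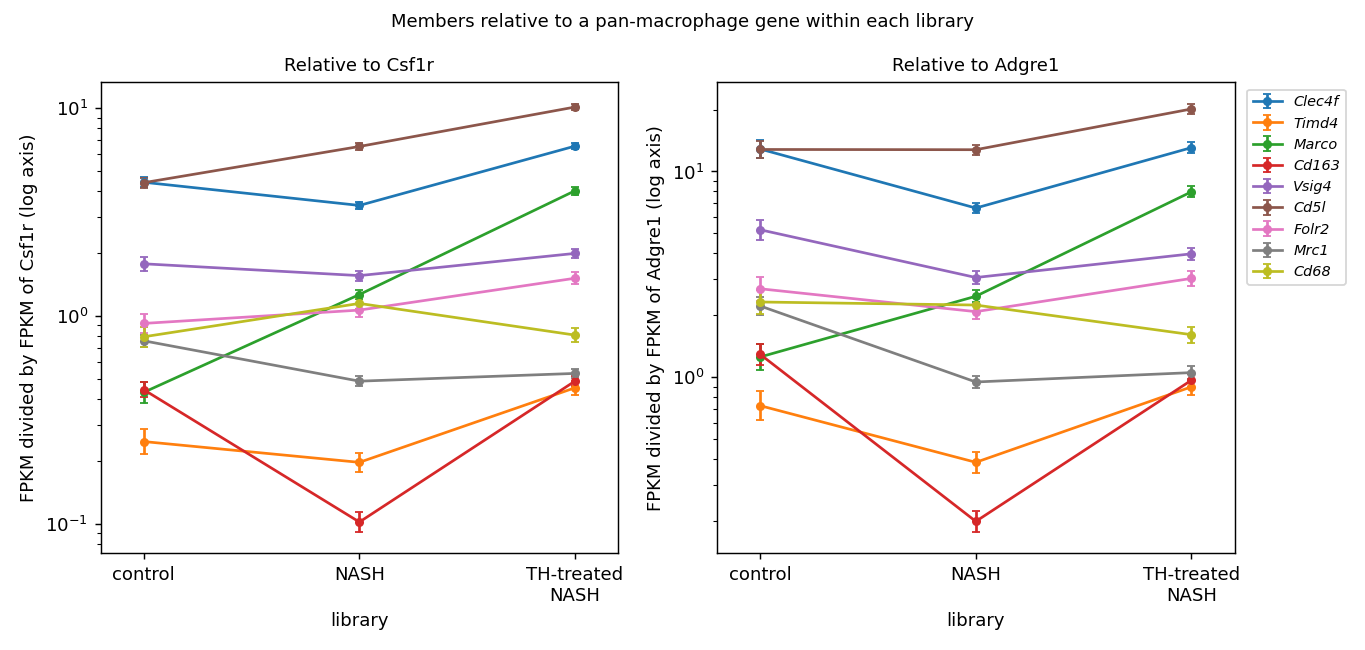
FPKM of each member divided by that of Csf1r (left) or Adgre1 (right) in the same library, on log axes, with exact 95% counting intervals and lines joining the values of 1 gene. Clec4f, Timd4, Cd163, Vsig4 and Mrc1 have their lowest points in NASH and stand higher in TH-treated NASH on both panels. Against Csf1r, the NASH intervals of Timd4 and Vsig4 overlap control, and on both panels those of Mrc1 overlap between the diet libraries. Marco stands higher in each library than in the one before.

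Other macrophage genes give the setting for these values. All 12 pan-leukocyte and pan-macrophage genes were higher in NASH than in control, with a median log2 ratio of 1.53, and their summed level was 109, 396 and 399 FPKM in the 3 libraries. In TH-treated NASH against NASH 1 of these 12 was higher, the lysosomal membrane gene Laptm5 at 1.57-fold (1.49 to 1.65), named after its value was seen, and none was lower. The median was 0.14. Adgre1 stood at 2.63, 9.03 and 9.95 FPKM and Ptprc at 1.66, 4.79 and 4.56 FPKM. Among 10 genes of lipid-associated macrophages, 9 were higher and 1 lower in NASH, with a median of 1.89. In TH-treated NASH against NASH 1 of these, Fabp5, was higher and 4 were lower, with a median of −0.39. Gpnmb, a glycoprotein of lipid-laden macrophages, stood at 5.19 FPKM in NASH and 0.124 in TH-treated NASH, opposite in direction to Clec4f. It reached 1 FPKM only in NASH, so its calls partly follow from that filter. Of 9 monocyte genes, 6 reached 1 FPKM, of which 4 were higher in NASH against control and 2 in TH-treated NASH against NASH, Chil3 and Plac8. Chil3, at 0.179, 0.484 and 4.68 FPKM, reached 1 FPKM only in TH-treated NASH, so its call partly follows from that filter. The summed monocyte level was 15.7, 47.9 and 67.5 FPKM, with Cd52 its largest part at 10.1, 31.4 and 35.6 FPKM. No gene of these 6 was called lower in TH-treated NASH against NASH. Cx3cr1, short of the call, stood at 1.68 FPKM in NASH and 0.903 in TH-treated NASH.

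Further Kupffer cell genes and regulators, from lists chosen with earlier results of these data known, varied in direction. Of 9 other Kupffer cell genes at 1 FPKM or more, 4 were higher in NASH than in control and none lower, and 2 were higher and 1 lower in TH-treated NASH than in NASH. Among the 2 higher, 1 reached 1 FPKM only in TH-treated NASH, so its call partly follows from that filter. Fcna, a ficolin that recognises microbial sugars, stood at 27.4, 28.4 and 77.6 FPKM, 2.73-fold higher in TH-treated NASH than in NASH (2.58 to 2.89). C6, a terminal complement component that hepatocytes make too, stood at 104, 85.3 and 38.9 FPKM, lowest in TH-treated NASH. Of 12 transcription factors, 4 were higher in NASH than in control and 2, among them Spic, in TH-treated NASH than in NASH, with none lower in either. Spic, needed for the macrophages that recycle red-cell iron, stood at 0.648, 1.93 and 4.0 FPKM, its value 2.07-fold higher with TH (1.74 to 2.47). Spi1, which encodes PU.1, stood at 3.19, 9.90 and 10.1 FPKM, close between the diet libraries. Nr1h3, the oxysterol receptor LXR alpha of Kupffer cells and hepatocytes, stood at 54.2, 61.5 and 76.9 FPKM.

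On the ligand side of Csf1r, Csf1 stood at 2.81, 3.81 and 3.52 FPKM and Il34 at 0.765, 1.75 and 1.93 FPKM. Il34 was past 1.5-fold in NASH against control, and neither ligand was in TH-treated NASH against NASH. Their list also held relatives, such as the receptor genes Csf2ra and Csf3r. Of its 5 genes at 1 FPKM or more, 3 (Il34, Csf2ra and Csf3r) were higher in the first pair and none in the second. Among other scavenger receptors, 4 of 11 were higher and 1 lower in NASH, and 1 was higher and 1 lower in TH-treated NASH against NASH. Msr1, the class A relative of Marco, stood at 2.998, 5.56 and 7.67 FPKM, far flatter than Marco. Scara5, a ferritin receptor, stood at 4.54, 2.21 and 7.78 FPKM, lowest in NASH like Cd163, and Cd36, a fatty acid and lipoprotein receptor that hepatocytes also carry, at 12.0, 54.0 and 21.6 FPKM, highest in NASH. Of 10 genes of apoptotic cell clearance and C1q, 7 were higher in NASH and none was 1.5-fold off between the diet libraries. C1qa, a chain of the complement trigger C1q, stood at 40.9, 130.4 and 184 FPKM.

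The haemoglobin pathway that Cd163 serves was listed as well. Hp, haptoglobin, whose complex with haemoglobin is the Cd163 ligand, stood at 4144, 3353 and 8143 FPKM, and Hpx, the haem carrier hemopexin, at 3555, 2977 and 7243 FPKM. Both were lowest in NASH and highest in TH-treated NASH, as Cd163 was, and both are made by hepatocytes. Their NASH values were short of 1.5-fold below control. Blvrb, also on the list, was highest in NASH, at 119, 132 and 93.5 FPKM. Of the 10 genes on this list, 1 was higher in NASH than in control, and 3 (Hp, Hpx and Spic) were higher in TH-treated NASH than in NASH, with none lower in either.

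Markers of blood cells also stood higher in the TH-treated NASH library. The 7 neutrophil genes summed to 4.97, 9.30 and 93.1 FPKM in control, NASH and TH-treated NASH. Of these genes, 3, 2 and 0 were under 0.1 FPKM. The 5 at 1 FPKM or more in any library were all past 1.5-fold higher in TH-treated NASH than in NASH. Some of them, such as Mpo at 0.0133, 0.0774 and 1.80 FPKM, passed that filter only in TH-treated NASH. Their calls therefore partly follow from the filter. S100a8 stood at 1.45, 3.42 and 40.7 FPKM, and Ly6g, a defining neutrophil surface gene also named after its value was seen, had no fragment in control and stood at 0.0226 and 0.194 FPKM in the others. The 7 erythroid genes summed to 316, 392 and 1759.8 FPKM, of which 5 of 6 were higher in TH-treated NASH than in NASH and Alas2 was lower, at 22.8 against 44.3 FPKM. Hbb-bs, a beta globin, stood at 131, 175 and 876 FPKM. The part of blood cells and of sequencing depth in the values of the Kupffer cell genes was not tested. Sinusoidal endothelial genes, which include neighbours of Kupffer cells that share Mrc1, had none of 11 past 1.5-fold in either NASH against control or TH-treated NASH against NASH. They summed to 96.2, 107 and 114 FPKM. Hepatocyte genes had 4 of 10 lower in NASH than in control and none higher, and 2 higher and 2 lower between the diet libraries, while stellate cell genes had 7 of 10 higher in NASH and 2 lower with TH.

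**Figure D4:**
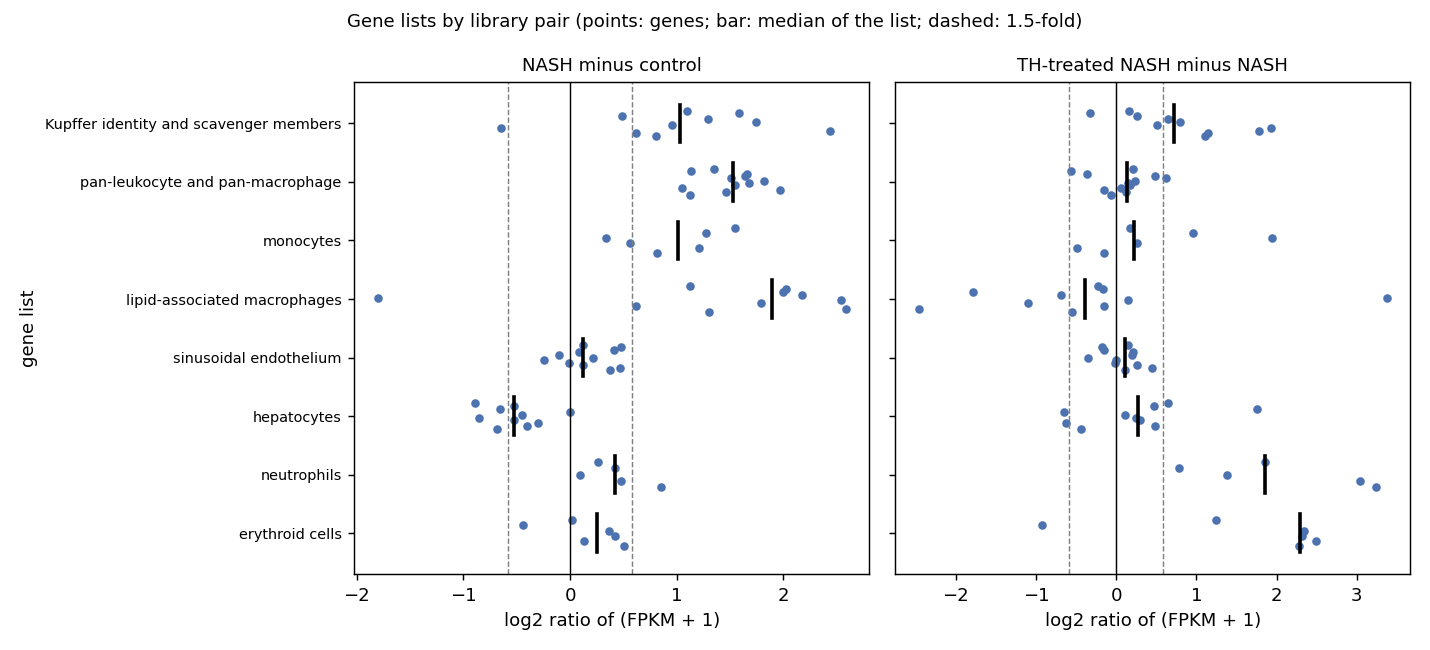
Log2 ratio of FPKM + 1 for the genes of 8 lists that reached 1 FPKM in any library, for NASH minus control (left) and TH-treated NASH minus NASH (right); points are genes, black bars list medians and dashed lines 1.5-fold. The Kupffer genes have medians of 1.03 and 0.72, the pan-macrophage genes 1.53 and 0.14, and the neutrophil and erythroid lists have the highest medians of the second panel, 1.85 and 2.29.

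Genes with the most similar course were sought among 7148 genes at 5 FPKM or more in any library, by the distance between their pair of log2 ratios and those of the member, over 3 libraries. Nearest to Clec4f were Alox5ap (distance 0.11), Igkc (0.11), Mup-ps12 (0.15), Timd4 (0.19) and Nudt18 (0.20), so that 1 other member was among the 5. Alox5ap, which activates leukotriene synthesis in leukocytes, stood at 1.98, 4.14 and 9.22 FPKM. Nearest to Cd163 were Got1 (0.14), Tat (0.17), E130012A19Rik (0.29), Snhg3 (0.34) and Itih3 (0.34). Tat, a tyrosine aminotransferase of hepatocytes, stood at 417, 264 and 894 FPKM. With 3 libraries, 2 ratios describe each course, and many genes can lie close by.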

How the data were processed

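Liver polyA RNA was measured in 3 libraries, 1 per group. Oligo(dT) beads selected the mRNA and random hexamers primed its copying, per the labels' protocols. TopHat2 and HTSeq are named in the submitters' processing notes, with versions, strand mode and build not given in the sources used here. FPKM per gene were deposited by the authors, 1 column per library, beside gene length.

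FPKM times length fell in whole multiples of 1 step per library (100% of values above 0 within 0.02 fragment), which gave the fragments behind the intervals. Log2 ratios used log2(FPKM + 1), and genes at 1 FPKM or more in any library were compared. A gene that reached 1 FPKM in only 1 library entered through that library, so its call is partly set by this filter. Called means past 1.5-fold. Fold intervals are conditional binomial (Clopper-Pearson), level intervals are Poisson. Because reads copied by PCR are not independent molecules, the intervals cover counting error only. Genes were matched by symbol (169 of 171) or gene ID (2, Adgre1 and Jchain, listed under older symbols). Up to 4 genes per list with the largest ratios, the members and a few set genes are named. A gene of the transcription factor list is not reported here. Members and lists were chosen with earlier results of these data known. The steps were tested on simulated data. Python 3.11.15, numpy 2.4.6, pandas 2.3.3, scipy 1.17.1 and matplotlib 3.10.9 were used.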

Additional observations from a re-analysis of the deposited data

How the results depend on the processing

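No paired analysis was possible because each group has 1 library, and no replicate could be left out. Settings tried were a pseudocount of 0.1 or 5 FPKM, a filter at 5 FPKM or none, 4 scalings, protein-coding genes, a 2-fold threshold, and the whole counting interval past 1.5-fold. Of 240 recomputed log2 ratios of single members 0 changed sign, though only the 4 scalings could have changed one. In NASH against control, 8 members were higher and 1 lower. With the 2-fold threshold these were 5 and 0, beside 3.24% and 0.752% of all genes, and a pseudocount of 5 FPKM also left 0 lower, beside 1.34%. Over all settings the members higher numbered from 4 to 6 for TH-treated NASH against NASH and from 9 to 10 against control, the fewest (4 and 9) at 2-fold, beside 2.7% and 5.4% of all genes. Mrc1 was the member lost against control, also after TMM scaling and with a pseudocount of 5 FPKM. Relative to a reference gene, members were counted from 1.5-fold. NASH against control had 2 of 9 members lower with Csf1r, 5 of 10 with Adgre1 and 4 of 10 with Ptprc. Of all genes, 83.7%, 93.3% and 90.3% were as far lower relative to these references. TH-treated NASH against control had 4 higher with Csf1r (3.42% of all genes) and 2 with Adgre1 (1.78%), and 0 lower with Csf1r (84.9%) against 1 with Adgre1 (93%) and 1 with Ptprc (86.9%). List medians of NASH against control turned negative after median-of-ratios and TMM scaling for haem handling (−0.039 and −0.040), sinusoidal endothelium (−0.056 and −0.057) and peritoneal macrophages (−0.14 in both). For TH-treated NASH against NASH they turned negative for dendritic cells without a filter (−0.048) and for apoptotic cell clearance after scaling to equal sums (−0.046). In the same pair, the list of Csf1r ligands and relatives turned negative at 5 FPKM (−0.22), where Csf2ra was its only gene left. The causes were not tested beyond the construction of each setting. Depth limits low genes: a count of 0 in a 2 kb gene allows up to 0.0275, 0.0319 and 0.0392 FPKM in control, NASH and TH-treated NASH (3 counts).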

Other observations

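Lists of lymphoid, dendritic, biliary and peritoneal cells held few genes at 1 FPKM. The 9 T and NK cell genes summed to 3.03, 6.08 and 7.10 FPKM in control, NASH and TH-treated NASH, and the 6 B and plasma cell genes to 4.39, 8.86 and 11.9 FPKM. None of the genes on these lists at 1 FPKM or more was past 1.5-fold between TH-treated NASH and NASH. The 6 dendritic cell genes summed to 0.926, 2.43 and 2.69 FPKM. The 5 cholangiocyte genes summed to 3.32, 4.88 and 2.30 FPKM, and 2 of the 3 at 1 FPKM or more were lower in TH-treated NASH than in NASH. Among 3 genes linked to large peritoneal macrophages, Gata6 stood at 2.30, 2.35 and 2.76 FPKM, and Alox15 had 2, 0 and 4 fragments.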
